A study of Mus musculus with 13 samples.

Results

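Interleukins are secreted proteins through which immune cells and glia signal, and the genes described here are the mouse interleukins and their receptors. Members were the protein-coding genes of the estimated count table whose symbol starts with Il followed by a digit, which gave 82 of 48795 genes. By known function, 37 of them encode ligands, 38 encode receptor chains, 6 encode antagonists or decoy receptors and 1, Il4i1, encodes a secreted amino acid oxidase. Together they held between 0.0278% and 0.0412% of the estimated counts of a sample.

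RNA was sequenced from the right brain hemisphere of 13 mice at postnatal day 11, after removal of olfactory bulb and cerebellum. The 5 nlsYAP5SA mice had the genotype NexCre +/- YAP5SAnls +/-, in which Cre from the NEX/NeuroD6 locus switches on a nuclear form of YAP1 that LATS kinases cannot phosphorylate, in the lineage of neuronal precursors. The 5 control mice were NexCre -/- YAP5SAnls +/- and carried the transgene without Cre. The 3 C57BL/6 mice were wild type and served as the background group, and all mice were on the C57BL/6J strain. Per the study's methods the nlsYAP5SA and control mice came from 2 shared matings and the C57BL/6 mice from neither, so litter and group cannot be told apart in comparisons with C57BL/6. Each sample is bulk RNA from 1 hemisphere, so fewer cells of a type and less RNA per cell cannot be told apart. The nlsYAP5SA mice are a model of ependymoma-like tumours, and a whole hemisphere can hold tumour together with the surrounding tissue.

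Most interleukin receptors are dimers of a chain that binds the ligand and a partner that several cytokines share, such as gp130 (Il6st), the common gamma chain (Il2rg) or the common beta chain (Csf2rb). Class I and II cytokine receptors signal through JAK kinases and STAT factors, with SOCS proteins as inhibitors, whereas the receptors of the IL-1 and IL-17 families signal through adaptors such as Myd88 and Traf3ip2 towards NF-kB. In the brain, microglia, the resident macrophages, carry many of these receptors and depend on Csf1r, whose ligands are colony-stimulating factor 1 and Il34, the latter made mainly by neurons.

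Sequencing depth was similar in the groups, with totals of 20871566 to 25524349 estimated counts. Levels are given as CPM, estimated counts scaled to the size of the library, and a gene listed at 0 may still have up to 3 counts, or 0.117 to 0.144 CPM depending on the sample, for counting error only. Yap1 reached 22.6 to 26.6 CPM in nlsYAP5SA mice, above the 19.4 to 22.3 CPM of the other mice. RNA of 4 Y-linked genes summed to over 10 CPM in 5 of 5 controls, 2 of 5 nlsYAP5SA mice (replicates 3 and 4) and 2 of 3 C57BL/6 mice, so that sex was uneven over the groups, and the number of members called is also given within the mice that had this RNA. The choroid plexus transcript Ttr ranged from 0.783 to 276 CPM over the 13 mice and was high and low within every group.

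Expression of the ligands was concentrated in few genes. Levels of different genes are given as CPM per kilobase of exon, averaged over all 13 samples. By this measure Il34 was the highest ligand at 14.1 ± 2.32 (SD, n = 13), followed by Il18, an IL-1 family cytokine made as an inactive precursor, at 9.67 ± 1.51. Il33, a nuclear alarmin of glia, reached 4.95 ± 0.707 CPM per kilobase, Il17d 3.72 ± 0.632 and Il4, a cytokine of type 2 immunity, 2.14 ± 0.220. These 5 were the only ligands at or above 1 CPM per kilobase, and of neighbours in this order only Il33 and Il17d had overlapping intervals of mean ± SD. The median ligand stood at 0.0188 CPM per kilobase.

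The receptor chains were spread more evenly. Il6st, the shared signalling chain gp130, was the highest at 10.8 ± 2.19 CPM per kilobase (SD, n = 13), then Il13ra1, a chain of the IL-4 and IL-13 receptor, at 3.12 ± 0.556. The next were Il1rapl1, a synaptic adhesion protein of the IL-1 receptor family, at 2.94 ± 0.677, Il11ra1 at 2.65 ± 0.391 and Il1rap, the co-receptor of the IL-1 family, at 2.21 ± 0.355 CPM per kilobase. Neighbours among these 4 had overlapping intervals of mean ± SD. In total 11 receptor chains were at or above 1 CPM per kilobase over all samples, and the median receptor chain stood at 0.201. By group means this was 10 in the controls, 14 in the nlsYAP5SA mice and 10 in the C57BL/6 mice. Il11ra1 shares sequence with Il11ra2 and overlaps other genes, among them Galt, Ccl27a and Dctn3, so its counts are uncertain. Il18bp, which neutralizes Il18, was the highest antagonist at 0.441 CPM per kilobase, and no antagonist reached 1. Il18bp overlaps Numa1, which lies on the opposite strand with a median of 999 counts, so its level is uncertain too.

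**Figure D1:**
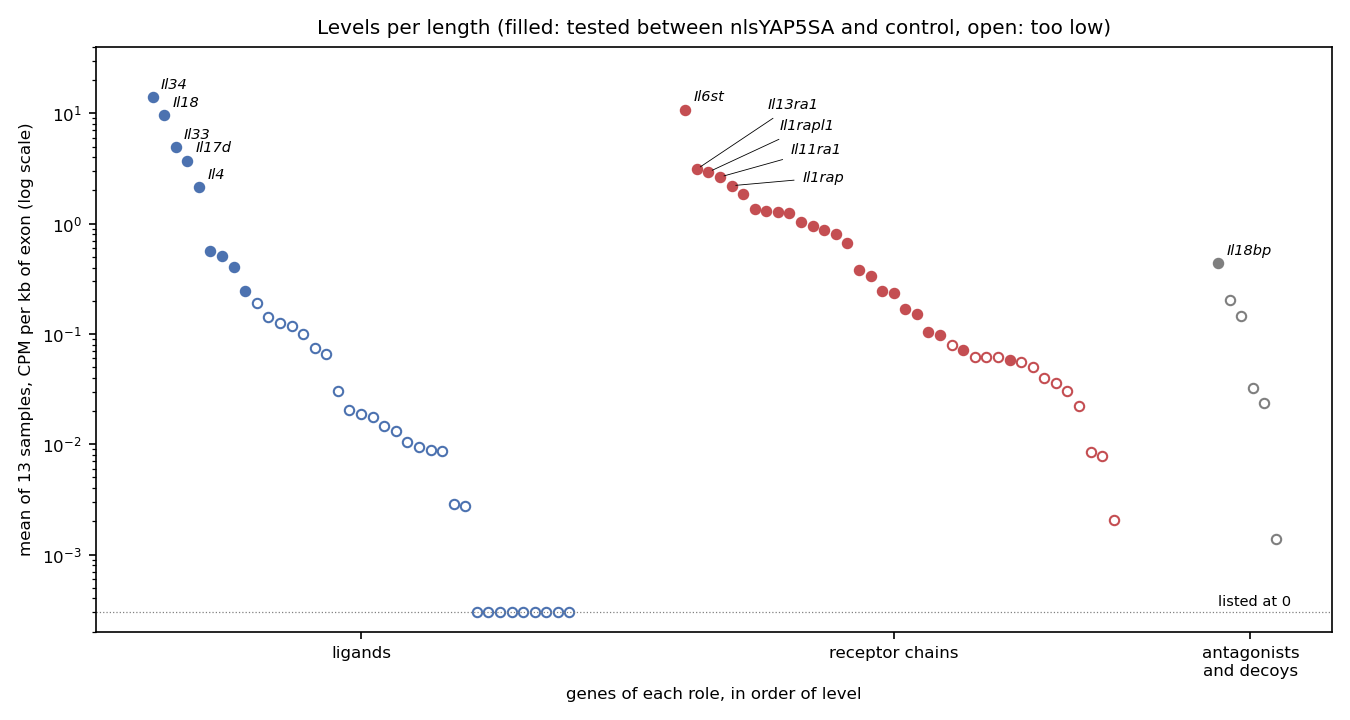
Mean level over 13 samples in CPM per kilobase of exon (log axis) of each ligand, receptor chain and antagonist or decoy, in order of level within its role, with filled points for genes tested between nlsYAP5SA and control mice and open points for genes too low to test. The ligands fall from 14.1 for Il34 to 9 genes listed at 0, while the receptor chains fall more gradually from 10.8 for Il6st.

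The comparison of nlsYAP5SA with control mice asks what differs in hemisphere RNA between mice with active YAP1 and mice without it. Only nlsYAP5SA mice carry Cre, a knock-in at Neurod6, so Cre, this allele and active YAP1 cannot be told apart for any gene. In nlsYAP5SA mice 9 receptor chains were higher and 1 ligand was lower, while most members of both roles were not called or not tested. Of the 82 members, 36 had enough counts to be tested, and 10 of these were called at an adjusted p of 0.05 or less with edgeR's quasi-likelihood test and Benjamini-Hochberg adjustment over all genes, which is 27.8% against 10.8% of all 16315 genes tested. The 9 called higher (7.36% of all genes) were all receptor chains: Il31ra, Il17rc, Il3ra, Il6ra, Il1r1, Il10ra, Il4ra, Il17ra and Il13ra1. The 1 called lower (3.44% of all genes) was Il34.

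By role, 9 of 25 receptor chains tested were called, with a median log2 fold change of 0.40. Among the ligands, 1 of 9 tested was called, with a median of -0.18, against a median of -0.01 over all genes. The fitted fold change was positive for 22 of 25 receptor chains and 2 of 9 ligands, while 48.7% of all genes had a positive one. Il31ra and Il20rb passed the filter on low counts with at least 10 counts in every nlsYAP5SA mouse but not in every control. For Il23a, Il27ra and Il12rb1 it was the reverse. The shares, signs and medians among genes that passed therefore describe those genes and not every member. The difference between receptor chains and ligands itself was not tested.

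No overlap between nlsYAP5SA and control mice was seen among the 36 members tested for 7 that were higher (6.50% of all genes) and 1 that was lower (3.57% of all genes), all among the called genes. With the Y-linked level as a covariate 6 members were called, all higher, against 542 of all 16315 genes (1761 without the covariate). Il17ra, Il13ra1, Il34 and Il3ra were not called, at log2 differences of 0.49, 0.35, -0.35 and 0.58. Within the mice with Y-linked RNA, 5 controls and 2 nlsYAP5SA mice, 3 of 41 members tested were called (Il6ra, Il17rc and Il31ra), against 334 of all 16918 genes.

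**Figure D2:**
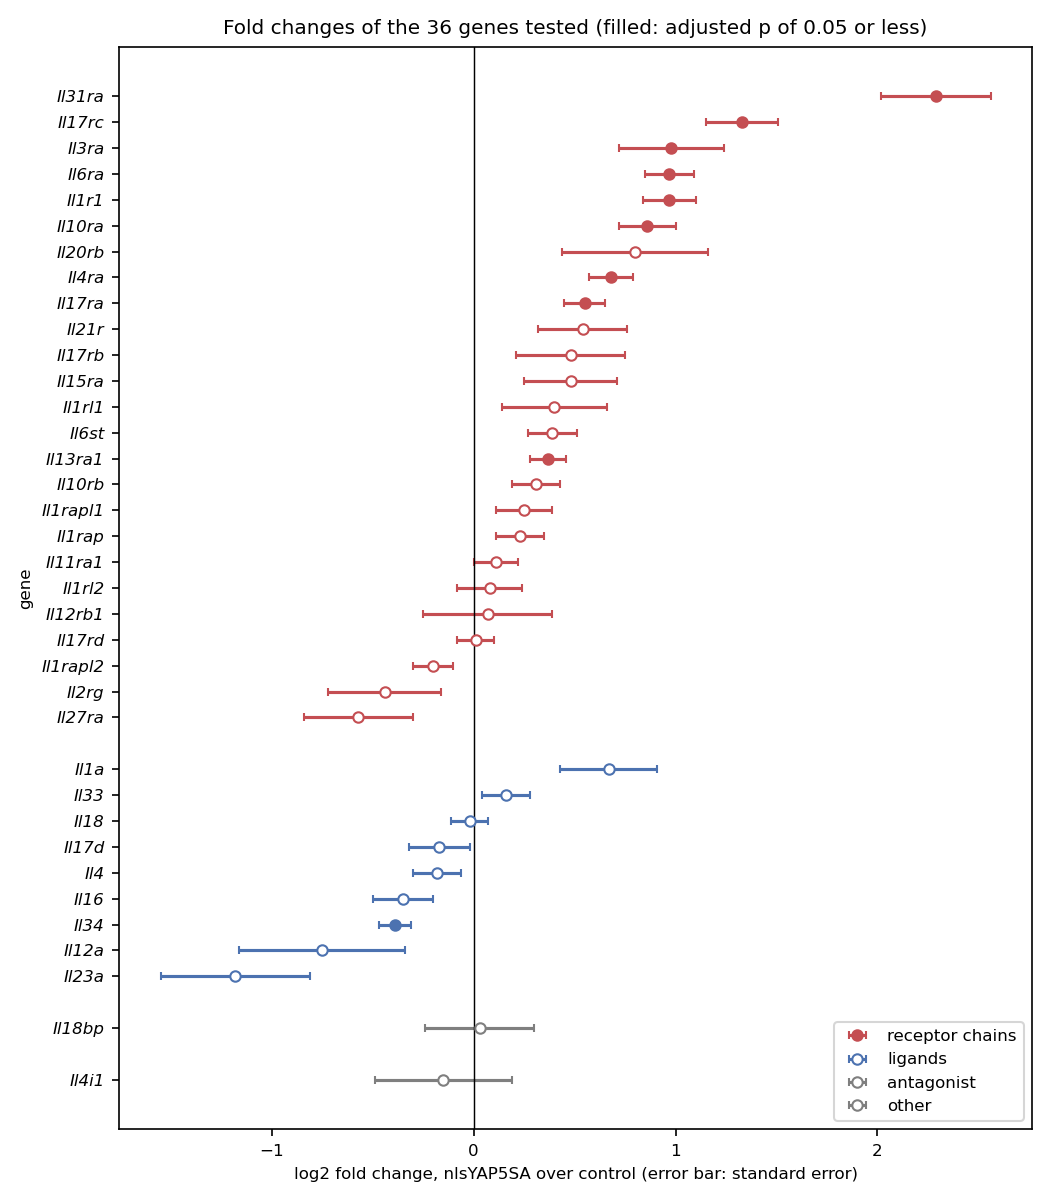
Log2 fold change of nlsYAP5SA over control mice for the 36 members tested, by role, with standard errors as bars and filled points for those at an adjusted p of 0.05 or less. The 9 filled receptor chains lie between 0.37 and 2.29, and Il34 is the filled ligand at -0.39.

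Il31ra and Il6ra, 2 receptor chains of the gp130 family, and Il1r1 were among the called genes for which RefSeq (GRCm38.p6) gave a transcript start. The 250 bases upstream of a start were searched for the core letters of TEAD factors, the DNA-binding partners of YAP1, and of STAT factors, which cytokine receptors activate. The Il31ra and Il1r1 windows are shown because they were the ones among called members that held these letters, and the Il6ra window is shown beside them as one that held neither. Each line is 5′ to 3′ in the direction of the gene, with GGAATG (TEAD) and TTCNNNGAA (STAT) in capitals, searched on both strands.
Il31ra, chr13:112580663-112580912, minus strand: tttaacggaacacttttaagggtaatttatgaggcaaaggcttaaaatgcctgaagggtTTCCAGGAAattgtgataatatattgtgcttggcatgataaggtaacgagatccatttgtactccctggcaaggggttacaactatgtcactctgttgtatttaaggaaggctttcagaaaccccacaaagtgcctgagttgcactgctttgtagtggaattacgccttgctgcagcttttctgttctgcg
Il1r1, downstream start, chr1:40266336-40266585, plus strand: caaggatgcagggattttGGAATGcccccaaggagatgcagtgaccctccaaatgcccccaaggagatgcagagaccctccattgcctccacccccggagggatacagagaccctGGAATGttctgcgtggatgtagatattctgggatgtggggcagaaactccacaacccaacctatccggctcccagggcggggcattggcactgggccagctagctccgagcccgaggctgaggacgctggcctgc
Il6ra, chr3:89913197-89913446, minus strand: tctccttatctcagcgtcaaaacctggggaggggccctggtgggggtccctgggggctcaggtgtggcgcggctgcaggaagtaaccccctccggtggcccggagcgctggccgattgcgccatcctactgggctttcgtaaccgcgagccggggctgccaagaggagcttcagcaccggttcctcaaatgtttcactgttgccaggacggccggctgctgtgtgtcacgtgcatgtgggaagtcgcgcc

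The STAT letters stood at -191 of the Il31ra start, and the TEAD letters at -232 and -135 of the downstream Il1r1 start. The starts used for Il31ra and for this Il1r1 window lie inside the annotated gene. Over all 32851 windows of this length, 12.6% held the TEAD letters, 7.02% the STAT letters, 6.75% the AP-1 letters TGANTCA, 45.8% the NF-kB letters (GGG and CC with 5 bases of any kind between them) and 2.44% the Spi1 letters GAGGAAGT. Of the 8 windows found for 7 of the 10 called members, 1 held the TEAD letters, 1 the STAT letters and 5 the NF-kB letters, while 0 held those of AP-1 or Spi1. The NF-kB letters overlapped the TEAD letters at -232 of Il1r1. A match describes these letters in this window and does not show a bound site.

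Among receptor chains of the gp130 family, Il31ra (ENSMUSG00000050377, chr13:112519898-112594360, minus strand) binds Il31 in a complex with Osmr and had the largest fold change of the members tested. Its levels were 0.123, 0.117, 0.167, 0.0840 and 0.142 CPM in the controls, 0.633, 0.518, 0.650, 0.783 and 0.609 in the nlsYAP5SA mice and 0.135, 0.0959 and 0.202 in the C57BL/6 mice. All 5 nlsYAP5SA mice stood above every other mouse. The log2 fold change was 2.29 ± 0.27 (SE), with an adjusted p of 1.5e-04 by edgeR's quasi-likelihood test. The counts behind it were low, 2 to 4 in the controls and 11 to 18 in the nlsYAP5SA mice. It passed the filter through the nlsYAP5SA mice alone, so its place among the called genes is a description, and fitted with no filter it had the same fold change (edgeR, adjusted p = 4.6e-04).

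Il6ra (ENSMUSG00000027947, chr3:89864059-89913196, minus strand), the ligand-binding chain of the IL-6 receptor, measured 5.40, 6.07, 6.17, 6.59 and 6.19 CPM in the controls. The nlsYAP5SA mice had 13.7, 13.8, 9.49, 10.1 and 12.6, and the C57BL/6 mice 6.23, 5.70 and 6.22. The groups did not overlap, the C57BL/6 mice lay within the range of the controls, and the lowest nlsYAP5SA values were those of replicates 3 and 4, the mice with Y-linked RNA. The increase was 0.97 ± 0.12 on the log2 scale (edgeR, adjusted p = 1.7e-04). It was 0.68 within the mice with Y-linked RNA (edgeR, adjusted p = 0.0147). Il6st, the partner of Il6ra, had 82.4 to 127 CPM in the controls and 115 to 163 in the nlsYAP5SA mice. These ranges overlapped, and its log2 difference of 0.39 ± 0.12 did not pass the adjustment (edgeR, adjusted p = 0.0589), although it did in 6 of 22 alternatives, among them DESeq2 (adjusted p = 0.0256).

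In the IL-1 family, Il1r1 (ENSMUSG00000026072, chr1:40225080-40317257, plus strand), the signalling receptor of Il1a and Il1b, was the only chain called of 6 tested. It stood at 3.11, 4.15, 4.34, 2.94 and 4.06 CPM in the controls, 7.14, 8.38, 7.24, 6.00 and 7.78 in the nlsYAP5SA mice and 3.77, 3.64 and 4.20 in the C57BL/6 mice. The lowest nlsYAP5SA mouse was above the highest control, and the log2 fold change was 0.97 ± 0.13 (edgeR, adjusted p = 4.4e-04). Within the mice with Y-linked RNA it was 0.83 and no longer called (edgeR, adjusted p = 0.0602). Il1rap, its co-receptor, differed by 0.23 ± 0.12 on the log2 scale (edgeR, adjusted p = 0.268).

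Both chains of the receptor for Il17a and Il17f were higher. Il17rc (ENSMUSG00000030281, chr6:113471427-113483140, plus strand) measured 1.55, 1.06, 1.04, 0.882 and 0.897 CPM in the controls, 2.53, 2.92, 2.34, 3.09 and 2.86 in the nlsYAP5SA mice and 1.21, 1.53 and 1.45 in the C57BL/6 mice. Control replicate 1 was the highest control and still below every nlsYAP5SA mouse, and the log2 fold change was 1.33 ± 0.18 (edgeR, adjusted p = 4.5e-04).

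Il17ra (ENSMUSG00000002897, chr6:120463247-120487559, plus strand), the chain shared by the IL-17 receptors, had 5.07, 5.52, 6.46, 6.68 and 6.28 CPM in the controls and 8.09, 9.61, 7.50, 9.22 and 9.70 in the nlsYAP5SA mice. In the C57BL/6 mice it had 7.17, 8.77 and 7.67 CPM. The nlsYAP5SA mice were above all controls but overlapped the C57BL/6 mice. Against the controls the log2 fold change was 0.55 ± 0.10 (edgeR, adjusted p = 0.00434), and with the Y-linked covariate 0.49 (edgeR, adjusted p = 0.0919).

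Il10ra (ENSMUSG00000032089, chr9:45253837-45269149, minus strand), the ligand-binding chain for the anti-inflammatory cytokine Il10, measured 3.07, 2.97, 3.63, 3.48 and 3.50 CPM in the controls and 5.65, 6.36, 4.38, 6.65 and 7.26 in the nlsYAP5SA mice. The C57BL/6 mice had 3.54, 4.07 and 3.84 CPM. nlsYAP5SA replicate 3 was the lowest of its group and was still above the other groups. The log2 fold change was 0.86 ± 0.14 (edgeR, adjusted p = 0.00121), and within the mice with Y-linked RNA 0.72, which was not called (edgeR, adjusted p = 0.0966). Its partner Il10rb differed by 0.31 ± 0.12 on the log2 scale, with overlapping groups (edgeR, adjusted p = 0.116).

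The chains of the type II receptor for Il4 and Il13 were higher together. Il4ra (ENSMUSG00000030748, chr7:125552120-125579474, plus strand) had 6.83, 5.95, 5.92, 6.42 and 6.09 CPM in the controls, 9.81, 11.5, 7.84, 11.3 and 9.70 in the nlsYAP5SA mice and 5.74, 5.75 and 5.77 in the C57BL/6 mice. The groups of nlsYAP5SA and control mice did not overlap, and the log2 fold change was 0.68 ± 0.11 (edgeR, adjusted p = 0.00133). Within the mice with Y-linked RNA it was 0.61 and was not called (edgeR, adjusted p = 0.0865).

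Il13ra1 (ENSMUSG00000017057, chrX:36112110-36171259, plus strand), which lies on the X chromosome, measured 10.1, 10.5, 10.5, 9.36 and 12.6 CPM in the controls and 12.5, 14.0, 12.5, 14.5 and 14.9 in the nlsYAP5SA mice. The C57BL/6 mice had 10.7, 9.15 and 9.12 CPM. Control replicate 5 reached into the range of the nlsYAP5SA mice, and the log2 difference was small at 0.37 ± 0.09 (edgeR, adjusted p = 0.0230). It lost its call with the Y-linked covariate, at a log2 difference of 0.35 (edgeR, adjusted p = 0.202), and without any 1 of control replicates 2 and 4 or nlsYAP5SA replicates 2 and 5, where the adjusted p from edgeR ran from 0.0510 to 0.0664.

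Il3ra (ENSMUSG00000068758, chr14:14346275-14356011, plus strand), the ligand-binding chain for Il3, was the least certain of the called genes. Its levels were 0.941, 0.548, 0.625, 0.546 and 0.709 CPM in the controls, 1.45, 1.79, 0.737, 1.26 and 1.45 in the nlsYAP5SA mice and 0.852, 0.959 and 1.05 in the C57BL/6 mice. nlsYAP5SA replicate 3 fell among the controls. The log2 fold change was 0.98 ± 0.26 (edgeR, adjusted p = 0.0279), and it was not called in 11 of 22 alternatives, in which the highest adjusted p was 0.675.

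**Figure D3:**
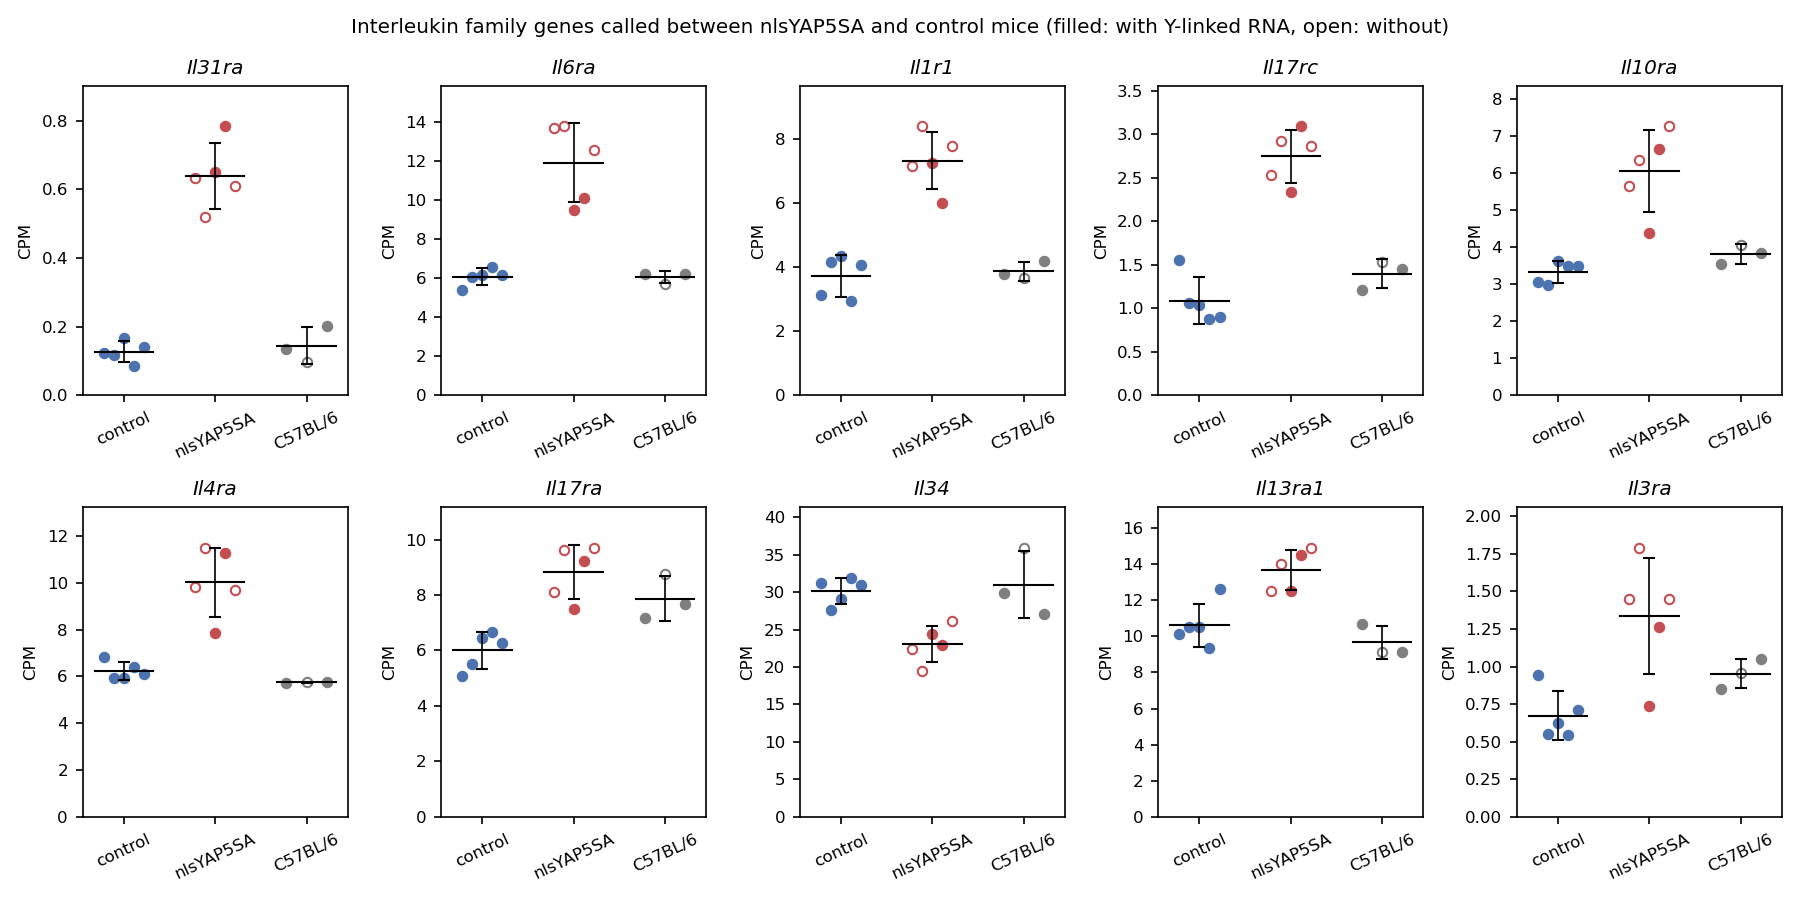
CPM of the 10 members called between nlsYAP5SA and control mice in each of 13 mice, with the mean as a line, the SD as a bar, filled points for mice with Y-linked RNA and open points for mice without. Only Il13ra1 and Il3ra have nlsYAP5SA mice within the range of the controls.

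Il34 (ENSMUSG00000031750, chr8:110741829-110805924, minus strand), the neuronal ligand of Csf1r, was the only ligand called. It measured 31.2, 27.6, 29.1, 31.9 and 31.0 CPM in the controls, 22.4, 19.5, 24.4, 22.9 and 26.1 in the nlsYAP5SA mice and 29.9, 35.9 and 27.1 in the C57BL/6 mice. Every nlsYAP5SA mouse was below every other mouse, and the level fell by 0.39 on the log2 scale (SE 0.08; edgeR, adjusted p = 0.00635). With the Y-linked covariate the log2 difference was -0.35 (edgeR, adjusted p = 0.120), and within the mice with Y-linked RNA -0.36 (edgeR, adjusted p = 0.0935).

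The receptor of Il34 moved the other way. Csf1r, which is not a member, had 80.0 ± 10.4 CPM (SD, n = 5) in the controls, 136 ± 14.9 (n = 5) in the nlsYAP5SA mice and 84.0 ± 2.62 (n = 3) in the C57BL/6 mice, with a log2 fold change of 0.76 ± 0.10 (edgeR, adjusted p = 2.5e-04).

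An unadjusted p of 0.05 or less was reached by 17 members (24.4% of all genes), of which 7 were not called, where 6.13% of all genes did so in the higher and 7.50% in the lower direction. Besides Il6st and Il10rb these were Il21r, the receptor of Il21, at a log2 difference of 0.54 ± 0.22 (edgeR, adjusted p = 0.143), and Il20rb at 0.80 ± 0.36 (edgeR, adjusted p = 0.193). Of the ligands, Il1a, a proinflammatory cytokine, stood at 0.67 ± 0.24 (edgeR, adjusted p = 0.102) and Il16, a chemoattractant for T cells, at -0.35 ± 0.15 (edgeR, adjusted p = 0.169). Il23a, the p19 subunit of IL-23, stood at -1.18 ± 0.37 (edgeR, adjusted p = 0.0654).

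The other highest ligands showed differences within their spread. Il18 was at 8.96 to 10.8 CPM in the controls and 8.26 to 10.6 in the nlsYAP5SA mice, a log2 difference of -0.02 ± 0.09. Il33 had 11.5 to 14.5 and 12.4 to 19.5 CPM, Il17d 4.30 to 5.85 and 3.57 to 5.98, and Il4 2.35 to 3.11 and 2.25 to 2.82. None of these 4 was called, and the groups overlapped for each of them.

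For most of the receptors that rose, the ligand itself was at or near 0. Il6 had at most 1 count in a sample, Il13 at most 1, Il17f at most 2 and Il10 at most 3. Il31, Il17a and Il3 were listed at 0 in all 13 samples. Of the ligands of Il1r1, Il1a reached 45 counts and Il1b 22, both in nlsYAP5SA replicate 4. Il4 had 48 to 76 counts, at a log2 difference of -0.18 ± 0.12 between nlsYAP5SA and control mice (edgeR, adjusted p = 0.414). RNA from a whole hemisphere does not bear on ligands made elsewhere.

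Shared partners without an interleukin symbol also rose. Csf2rb, the common beta chain and partner of Il3ra, went from 1.39 ± 0.382 CPM (SD, n = 5) in the controls to 5.42 ± 1.20 (n = 5) in the nlsYAP5SA mice, with 1.96 ± 0.21 as the log2 fold change (edgeR, adjusted p = 7.0e-05). Osmr, the partner of Il31ra, rose from 5.73 ± 1.11 to 11.8 ± 1.68 CPM, which is 1.04 ± 0.14 on the log2 scale (edgeR, adjusted p = 3.7e-04). Both were near the controls in the C57BL/6 mice, at 1.57 ± 0.184 and 6.01 ± 0.521 CPM (n = 3). Csf2rb and its near-identical copy Csf2rb2 share reads, so the division between them is uncertain. The common gamma chain Il2rg was at 1.13 ± 0.177 CPM per kilobase in the controls and 0.834 ± 0.417 in the nlsYAP5SA mice and was not called (edgeR, adjusted p = 0.373).

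**Figure D4:**
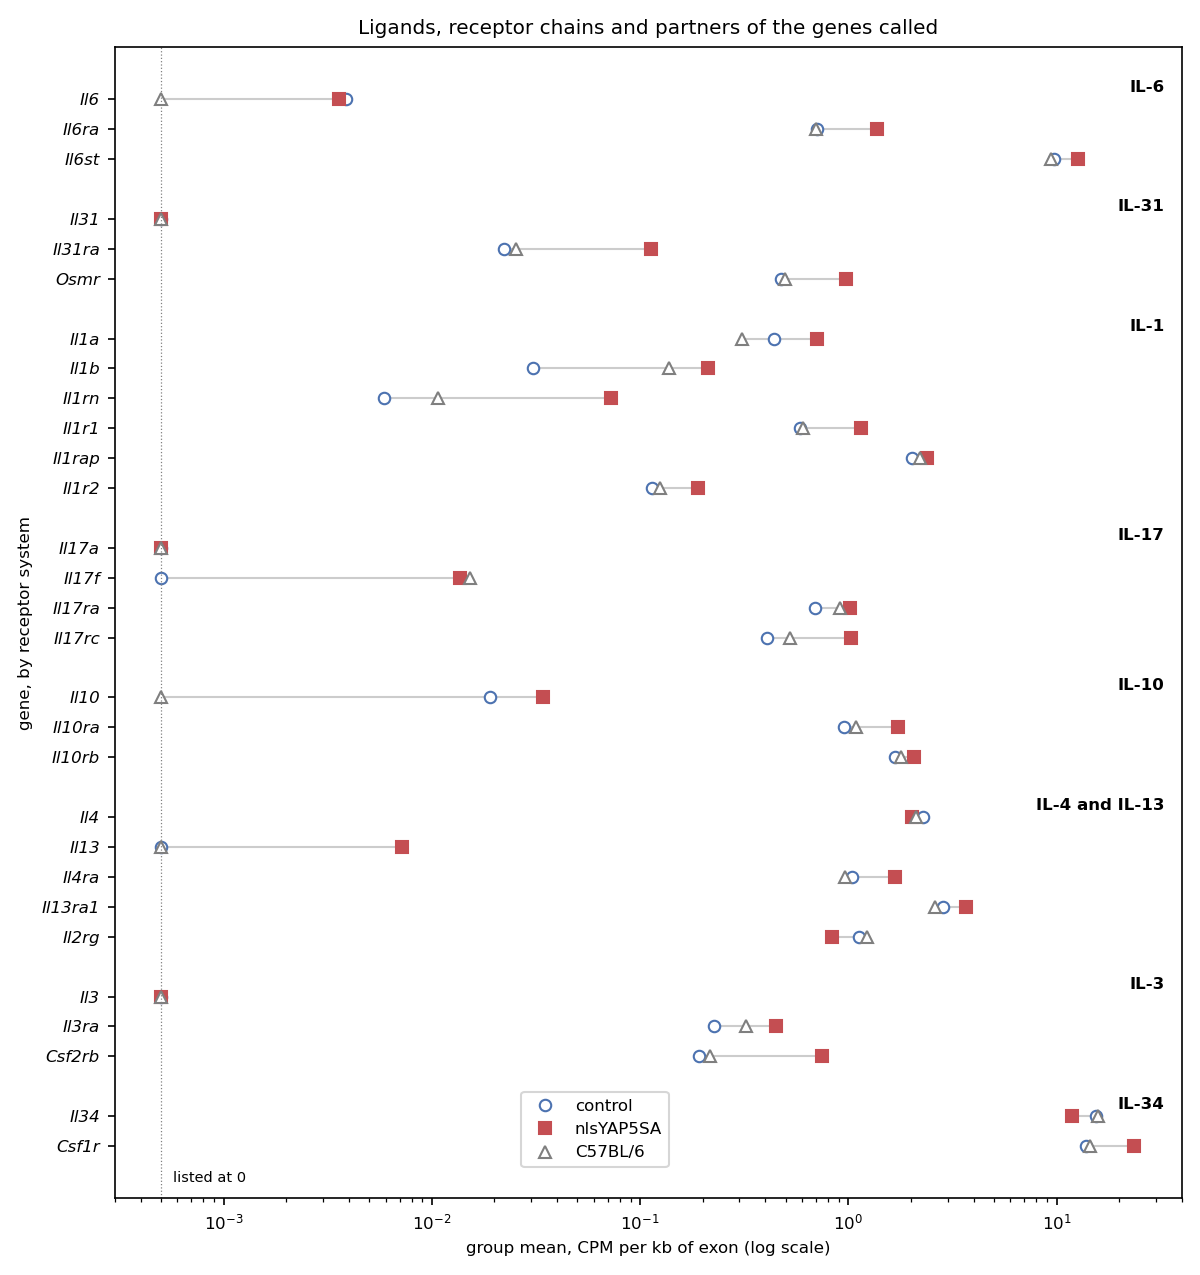
Mean level of each group in CPM per kilobase of exon (log axis) for the ligands, chains and partners of the receptors called, with circles for control, squares for nlsYAP5SA and triangles for C57BL/6 mice. The squares lie to the right for the receptor chains called and for Osmr, Csf2rb and Csf1r and to the left for Il34, while Il31, Il17a and Il3 sit on the line for genes listed at 0.

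Of 59 signalling genes in 5 lists without an interleukin symbol, 52 were tested, and 15 were called higher (28.8% of those tested, against 7.36% of all genes) and 0 lower (3.44% of all genes). The median log2 fold change was 0.15. The lists were chosen with earlier results of these data known, so these shares describe the listed genes only. Among receptor partners and related cytokines 5 of 12 tested were higher: Csf2rb, Csf2rb2, Osmr, Cntf and Clcf1. Higher genes among the JAK and STAT genes included Jak2, Stat3 and Stat6, and Stat3, the main factor downstream of gp130, was at 0.53 ± 0.05 on the log2 scale (edgeR, adjusted p = 6.3e-05).

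Only Socs3 was called among 12 inhibitors of JAK-STAT signalling. It is a feedback inhibitor that gp130 cytokines induce, and it rose by 1.52 ± 0.16 on the log2 scale, with 1.56 to 1.88 CPM in the controls and 4.20 to 6.91 in the nlsYAP5SA mice (edgeR, adjusted p = 5.5e-05). Of 12 adaptors and kinases downstream of IL-1 and IL-17 receptors, Irak4 and Tab2 were higher. Of 5 tested genes that process IL-1 family cytokines, Nlrp3, Aim2 and Gsdmd were higher, with log2 fold changes of 0.74, 0.91 and 1.28, and Nlrp3 was not called in 8 of 22 alternatives. With the Y-linked covariate 5 of the 52 signalling genes were called, all higher, against 476 higher of all 16315 genes.

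Markers of several cell types moved with the same groups. The shares to set beside these lists and those of the next paragraph were 7.36% of all genes called higher and 3.44% lower. Microglial markers had 5 of 8 higher, with a summed level of 339 to 422 CPM in the controls, 455 to 591 in the nlsYAP5SA mice and 355 to 409.9 in the C57BL/6 mice. Astrocyte markers had 4 of 6 higher, with summed levels of 1540 to 1865, 2518 to 2923 and 1691 to 1819 CPM in the same order, and Gfap rose by 2.06 ± 0.07 on the log2 scale (edgeR, adjusted p = 1.3e-08). Endothelial markers had 2 of 5 lower (154 to 182, 118 to 152 and 158 to 181 CPM), and markers of pericytes and fibroblasts had 3 of 6 lower (277 to 361, 201 to 321 and 348 to 375 CPM). Of the other lists, Folr1 was higher of 5 choroid plexus markers and Foxj1 of 4 ependymal markers, while Olig1 was lower of 7 oligodendrocyte markers and Neurod6 of 7 neuronal markers. The Cre allele is a knock-in at Neurod6 that nlsYAP5SA mice alone carry, so for this gene the allele and the cell type cannot be told apart. The part of these cell types in the change of any receptor was not tested.

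Markers of monocytes and neutrophils summed to 0.331 to 0.861 CPM in the controls, 1.08 to 5.27 in the nlsYAP5SA mice and 0.444 to 0.942 in the C57BL/6 mice, and of 8 genes only Ccr2, the monocyte chemokine receptor, was tested and called, at a log2 fold change of 2.90 ± 0.81 (edgeR, adjusted p = 0.0376). Ccr2 was highest in nlsYAP5SA replicate 2 at 4.38 CPM and was not called in 9 of 21 alternatives. Ly6g and Elane of this list and Ncr1 of the list for T and NK cells were listed at 0 in all 13 samples, while S100a8 reached 7 counts, S100a9 5, Mpo 2 and Klrb1c 1. Markers of T and NK cells summed to a median of 6.91 CPM in the nlsYAP5SA mice and 7.59 in the controls, while those of B cells to 1.45 to 2.62 and 1.61 to 3.15 and those of mast cells to 0.0452 to 0.347 and 0 to 0.274, and 0 of the 3 genes tested in these lists was called. Border-associated macrophages, at 25.6 to 40.2 and 17.2 to 29.2 CPM, had Cd163 and F13a1 higher of 5 markers.

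The filter on low counts removed 46 of the 82 members in the comparison of nlsYAP5SA with control mice, 28 ligands, 13 receptor chains and 5 antagonists. The 9 listed at 0 in all 13 samples were all ligands: Il3, Il9, Il17a, Il20, Il24, Il31, Il1f6, Il1f9 and Il1f10. A further 28 members had a highest count between 1 and 9, among them the ligands Il2, Il5, Il6, Il7, Il10, Il12b, Il13, Il21, Il22 and Il25 and the chains Il2rb, Il5ra, Il9r, Il18r1 and Il23r. The other ligands in this range were Il17b, Il17c, Il17f, Il19, Il27 and Il1f8, the other chains Il11ra2 (by 1 of its 3 identical rows), Il17re, Il20ra and Il22ra1, and the antagonists Il1r2, Il1f5 and Il22ra2. With so few counts these genes were not tested. Il1r2, a decoy for IL-1, had 3 to 7 counts in the controls and 7 to 9 in the nlsYAP5SA mice.

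The remaining 9 reached 10 counts in at least 1 sample: Il11, Il15, Il1b, Il2ra, Il7r, Il12rb2, Il18rap, Il1rn and Il13ra2. Without the filter 73 members could be fitted, and 13 were called, against 1605 of all 29580 genes. These were the 10 above with Il18rap, Il1b and Il1rn. In the unfiltered fit against C57BL/6 mice Il18rap was called, while Il1b and Il1rn were not. Il18rap, the accessory chain of the IL-18 receptor, had 3, 0, 5, 4 and 1 counts in the controls, 9, 13, 4, 14 and 13 in the nlsYAP5SA mice and 3, 1 and 1 in the C57BL/6 mice. nlsYAP5SA replicate 3 fell within the controls, and the unfiltered log2 fold change was 2.07 ± 0.56 (edgeR, adjusted p = 0.0358).

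Il1b, the secreted IL-1 that inflammasomes release, had 3, 1, 1, 1 and 1 counts in the controls, 2, 9, 2, 22 and 10 in the nlsYAP5SA mice and 4, 6 and 8 in the C57BL/6 mice. Il1rn, the antagonist of Il1r1, had 1, 1, 1, 1 and 0 counts, 1, 3, 2, 27 and 12 counts and 2, 1 and 1 counts in the same order. For both genes nlsYAP5SA replicates 4 and 5 were the highest of the 13 mice. Replicates 1 and 3 for Il1b and replicate 1 for Il1rn lay within the counts of the controls, and the remaining nlsYAP5SA mice lay above them. Unfiltered log2 fold changes were 2.67 ± 0.69 for Il1b (edgeR, adjusted p = 0.0278) and 3.39 ± 0.88 for Il1rn (edgeR, adjusted p = 0.0280). Il13ra2, the decoy for Il13, had 5 to 11 counts in the controls and 8 to 28 in the nlsYAP5SA mice and was not called without the filter (edgeR, adjusted p = 0.141).

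**Figure D5:**
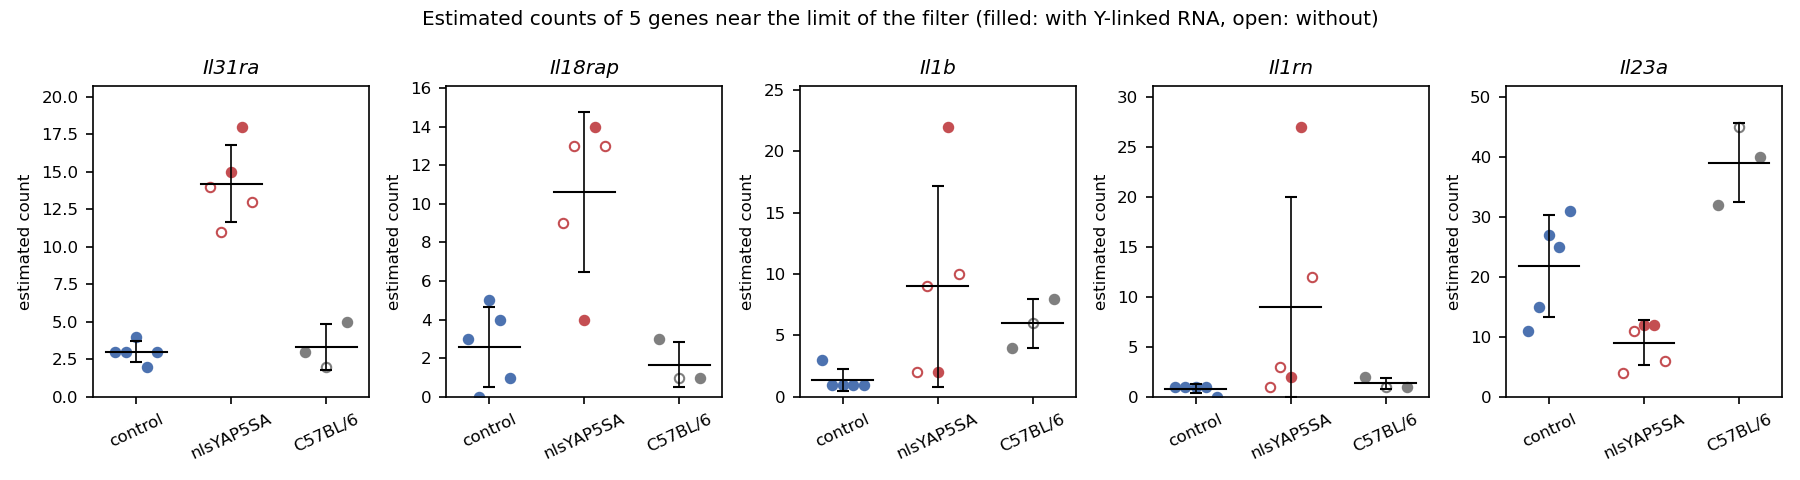
Estimated counts of 5 members near the limit of the filter in each of 13 mice, with the mean as a line, the SD as a bar cut at 0, filled points for mice with Y-linked RNA and open points for mice without. All 5 nlsYAP5SA mice are high for Il31ra, whereas 1 mouse with 27 counts and 1 with 12 carry the mean of Il1rn.

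C57BL/6 mice were compared with the controls to see whether carrying the transgene without Cre was accompanied by a change. The 5 controls are the same as above. Of 33 members tested 0 were called by edgeR's quasi-likelihood test, against 0.169% of all 16546 genes, and DESeq2 called 0 as well. An unadjusted p of 0.05 or less was reached by 3 members, while 3.78% of all genes did so. These were Il17ra at a log2 difference of 0.39 ± 0.12 (edgeR, adjusted p = 0.922), Il23a at 0.90 ± 0.35 and Il15ra, a chain of the IL-15 receptor, at 0.59 ± 0.24 (edgeR, both adjusted p = 1).

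nlsYAP5SA mice were also set against the C57BL/6 mice, with the same 5 nlsYAP5SA mice, so the result is not independent of the first comparison. Of 39 members tested 8 were called (20.5%, against 6.38% of all 16641 genes), 7 higher (4.16% of all genes) and 1 lower (2.22%). Log2 fold changes of the receptor chains were 2.07 ± 0.36 for Il31ra, 0.96 ± 0.15 for Il6ra, 0.90 ± 0.14 for Il1r1, 0.96 ± 0.17 for Il17rc, 0.79 ± 0.14 for Il4ra and 0.49 ± 0.10 for Il13ra1, with adjusted p from edgeR between 0.00455 and 0.0217. Il18rap, which is among the 7, was at 2.60 ± 0.61 (edgeR, adjusted p = 0.0340). It was not called in 5 of 11 alternatives, with the highest adjusted p of 0.122 (edgeR) without C57BL/6 replicate 2. Like Il31ra it passed the filter only through its level in the nlsYAP5SA mice, so both count as descriptions here.

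Il10ra at 0.65 ± 0.17 and Il34 at -0.44 ± 0.11 just missed the threshold (edgeR, adjusted p = 0.0514 and 0.0521), and Il17ra at 0.15 ± 0.12 and Il3ra at 0.47 ± 0.29 were not called (edgeR, adjusted p = 0.541 and 0.395). Without C57BL/6 replicate 1, 4 of 42 members tested were called. Calls fell over all genes too, to 401 of 16908 from 1061 of 16641.

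The member called lower was Il23a. It had 11, 15, 27, 25 and 31 counts in the controls, 4, 11, 12, 12 and 6 in the nlsYAP5SA mice and 32, 45 and 40 in the C57BL/6 mice. In CPM the controls overlapped both other groups, while every C57BL/6 mouse was above every nlsYAP5SA mouse. Against C57BL/6 the level fell by 2.10 on the log2 scale (SE 0.33; edgeR, adjusted p = 0.00564). Over 21 alternatives the log2 difference of nlsYAP5SA from control mice ran from -1.36 to -0.81, with adjusted p from 0.0303 to 0.650 (edgeR and DESeq2), and it passed the threshold in 3 of them.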

How the data were processed

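Poly(A) RNA libraries of 13 hemispheres were sequenced with Illumina chemistry. The authors deposited 1 table that gives estimated counts for each gene, from RSEM 1.3.0 after trimming with CutAdapt 1.5 and mapping with STAR to GRCm38 with Ensembl transcripts; versions are from the submitters' processing notes, and a strand setting is not given in the sources used here. Reads that match several copies of a gene are shared among them by RSEM, and overlapping genes cannot be told apart without strand. Estimated counts were rounded; between 12.4% and 13.3% of values per sample were not whole. Of 85 rows whose symbol matched the rule 1 was not protein coding. Il11ra2, present in 3 identical rows, was counted as 1 gene. Of its rows 1 was kept and they were not summed, so its count may hold only a part of its reads.

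Groups followed the labels. Replicates are separate mice, and the labels assign none to a litter or sex, although nlsYAP5SA and control mice were littermates per the study's methods. Counts were analysed in R 4.3.3 with edgeR 4.0.16 (TMM, filterByExpr with a minimum count of 10 and minimum total of 15, two-sided quasi-likelihood test, only the groups compared in a fit), and p adjusted by Benjamini-Hochberg over every gene in the fit, with a threshold of 0.05. CPM used TMM factors over all 13 samples, and lengths were the union of exons in GENCODE M21 (GRCm38), a later release than the authors'. Errors of fold changes were derived from the F statistic. The fit was tested on simulated data. Alternatives were DESeq2 1.42.0 size factors and Wald test, library size alone, no filter, at least 10 counts in every sample, all samples in a fit, a replicate block, a covariate of 4 Y-linked genes and leaving out each mouse; offsets for GC content and length by ordinary and robust loess, a Ttr covariate and the restriction to mice with Y-linked RNA were added after the data were seen.

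Members, roles and lists were chosen with earlier results of these data known. Named genes were members called in any comparison, members at an unadjusted p of 0.05 or less, the 5 highest ligands and receptor chains per length, and the ligands and partners of called members; Il1b, Il1rn, Il13ra2 and the promoter windows shown were chosen after their values were seen. Same-numbered control and nlsYAP5SA mice had correlations of deviations from -0.31 to 0.31, with 2 of 5 above 0.1, so the numbers were not taken as pairs. Mice of the same group differed beyond sampling noise (lowest chi-square per degree of freedom 7.22 over 13454 genes).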

Additional observations from a re-analysis of the deposited data

Results flagged for a closer look

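In 4 of 66 groups of 5 mice looked at, 1 mouse lay far from the rest by Dixon's criterion, where chance flags about 1 in 20 groups (3.30 here). Il17rc was at 1.55 CPM in control replicate 1 and between 0.882 and 1.06 in the other controls. Il1b was at 0.123 CPM (3 counts) in control replicate 1 against 0.0391 to 0.0472 elsewhere in the group, and Il1rn was at 0 in control replicate 5 against 0.0391 to 0.0420, differences of 1 to 2 counts. Il2ra, the alpha chain of the IL-2 receptor, was at 0.471 CPM (10 counts) in nlsYAP5SA replicate 2 and between 0.0867 and 0.181 in the other nlsYAP5SA mice.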

How the results depend on the processing

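Between nlsYAP5SA and control mice, 9 to 13 members (1489 to 3414 of all genes) were called under other scaling, filters, tests, offsets and the Ttr covariate. With each mouse left out, 8 to 11 members (1210 to 1891 of all genes) were called. Exceptions were the Y-linked covariate (6 members, 5 signalling genes) and the restriction to mice with Y-linked RNA (3 and 5), which leaves 7 mice; the signalling genes called ran from 12 to 16 with each mouse left out. Of the single genes refitted, all but Il18 and Il17d kept their sign. Il18, at -0.02 on the log2 scale, turned to values between 0.01 and 0.03 without control replicate 1, nlsYAP5SA replicate 4 or 5, and to 0.03 with the robust loess offset. Il17d, at -0.17, turned to 0.07 with the Y-linked covariate and 0.08 within mice with Y-linked RNA; neither was called in any of these. Between C57BL/6 and control mice 0 members were called in every alternative run. Against C57BL/6, 4 to 10 members (401 to 1757 of all genes) were called with each mouse left out. There were 4 without C57BL/6 replicate 1 and 0 with the replicate block (26 of 16370 genes), which uses 3 pairs. The replicate block called 9 members between nlsYAP5SA and control mice, losing Il3ra (edgeR, adjusted p = 0.0550); only nlsYAP5SA replicate 1 correlated best with its own number. Over all genes, 1761 were called between nlsYAP5SA and control mice, 68.1% of them higher; this was 2259 (60.4% higher) with DESeq2, 542 (87.8%) with the Y-linked covariate, 334 (92.2%) within mice with Y-linked RNA and 3414 (38.4%) with the ordinary loess offset, under which the median log2 fold change was -0.06. With the longest transcript as length the same 5 ligands and 5 receptor chains were the highest. Low counts limit the ligands: the filter removed 28 of 37.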
